A study of Mus musculus with 9 samples.

Results

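The 8 genes described here are hosts of small nucleolar RNAs (snoRNAs): Gas5, Snhg1, Snhg3, Snhg5, Snhg6, Snhg8, Snhg11 and Snhg12. They were selected by symbol from the 23360 genes listed for each of 9 mouse libraries, and all 8 were expressed highly enough to be tested among 14337 genes. The libraries fall into 3 groups of 3. A1G tumours are SHH medulloblastomas from Math1-cre;A1G;Ptch1+/- mice of mixed strain, in which the Math1 promoter, active in granule neuron progenitors, drives Cre. The labels do not define the A1G allele, and the design text names ATOH1 as the driver of these tumours beside Hedgehog signalling. Ptch1 tumours are SHH medulloblastomas from Ptch1+/- mice, also of mixed strain, so both tumour kinds share 1 mutant copy of the Hedgehog receptor gene. The comparison tissue is wild-type adult cerebellum of C57BL/6 mice, so strain and tissue cannot be told apart against the tumours. The sources used here do not give the ages of tumour animals or the number of animals behind each library, and p-values therefore measure the spread between libraries.

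A snoRNA host gene is transcribed by RNA polymerase II, spliced, and yields snoRNAs from its introns. Box C/D snoRNAs guide 2′-O-methylation and box H/ACA snoRNAs guide pseudouridylation of ribosomal RNA, so hosts are tied to ribosome production. In many hosts, including Gas5, the spliced RNA codes for no known protein, starts with a terminal oligopyrimidine (TOP) tract like ribosomal protein mRNAs, and is removed by nonsense-mediated decay when it is translated. Granule neuron progenitors, the cells of origin of SHH medulloblastoma, divide and grow, whereas the adult cerebellum is made of postmitotic neurons and glia.

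Depth ranged from 2350941 to 9290237 fragments per library, and levels below are fragments scaled to counts-per-million (CPM) with trimmed-mean (TMM) factors over the 9 libraries, given in the order of replicates 1, 2 and 3. Log2 differences and their standard errors (SE) come from edgeR's quasi-likelihood fit, with the p-values of each comparison adjusted over the tested genes by Benjamini-Hochberg, with a threshold of 0.05. The tissue labels were checked against marker sums: 8 granule neuron progenitor markers summed to 3269 to 8396 CPM in the tumours and 79.8 to 127 CPM in cerebellum, and 10 mature granule neuron markers to 695 to 2832 CPM and 8104 to 8801 CPM. In these bulk libraries fewer cells of a type and less RNA per cell cannot be told apart. The libraries also differed in small RNA content. The 119 rows of snoRNAs and related small RNAs made up 0.214% to 1.47% of a library's fragments, highest in A1G replicate 2 and at most 0.541% in the other libraries.

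Start regions are shown for 6 hosts, 3 with a pyrimidine tract at the annotated start and 3 without one, because such a tract is known from many hosts. Each run covers 35 bases before and 35 bases from the RefSeq start on GRCm38.p6 (mm10), 5′ to 3′ on the gene's strand. Capitals mark a C followed by at least 4 letters C or T, beginning within 5 bases of the start.
Gas5 start, chr1:161035131-161035200, plus strand: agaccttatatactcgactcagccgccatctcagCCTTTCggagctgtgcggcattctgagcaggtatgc
Snhg1 start, chr19:8723452-8723521, plus strand: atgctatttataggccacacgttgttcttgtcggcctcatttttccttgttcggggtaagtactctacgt
Snhg5 start, chr9:88522863-88522932, minus strand: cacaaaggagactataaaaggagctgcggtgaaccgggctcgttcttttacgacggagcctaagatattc
Snhg8 start, chr3:123508302-123508371, minus strand: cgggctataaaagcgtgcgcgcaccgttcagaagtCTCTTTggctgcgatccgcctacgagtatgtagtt
Snhg11 start, chr2:158375678-158375747, plus strand: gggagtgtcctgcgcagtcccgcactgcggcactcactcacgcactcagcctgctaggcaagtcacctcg
Snhg12 start, chr4:132308643-132308712, plus strand: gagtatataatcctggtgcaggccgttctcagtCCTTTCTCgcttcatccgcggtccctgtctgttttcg
Windows of 300 bases were given for 7 of the 8 hosts, with 2 for Gas5. The tract was found in Gas5 (second window), Snhg3, Snhg8 and Snhg12, which is 4 of 8 windows, against 18.3% of 32851 windows of all genes. The E-box CACGTG, searched on both strands, was in none of the 8 windows and in 7.15% of all windows. Of the 3 hosts that passed the test as higher in tumours, Snhg8 held a tract at its annotated start, and Snhg1 and Snhg5 held none by this rule. Snhg11, the host that fell, held none.

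Sequences of the snoRNAs come next because several of them have rows of their own in the tables, and their counts are set beside those of their hosts below. GENCODE M21 places 29 snoRNA genes within the spans of the 8 hosts, and 9 of them have a row. Capitals mark the letters TGATGA (box C) and CTGA (box D) in box C/D snoRNAs, searched in the first and last 30 bases, and ACA within the last 10 bases of box H/ACA snoRNAs. Genomic T stands for U in the RNA.
Snord47 of Gas5, chr1:161038082-161038158, plus strand: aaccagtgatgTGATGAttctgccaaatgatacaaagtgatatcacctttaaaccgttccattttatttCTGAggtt
Snord22 of Snhg1, chr19:8725866-8725991, plus strand: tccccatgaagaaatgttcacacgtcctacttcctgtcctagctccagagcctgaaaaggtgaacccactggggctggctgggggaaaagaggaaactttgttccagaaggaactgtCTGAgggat
Snord87 of Snhg6, chr1:9942463-9942549, minus strand: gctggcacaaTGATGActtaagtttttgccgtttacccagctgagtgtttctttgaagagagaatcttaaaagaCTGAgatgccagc
Snora24 of Snhg8, chr3:123507937-123508066, minus strand: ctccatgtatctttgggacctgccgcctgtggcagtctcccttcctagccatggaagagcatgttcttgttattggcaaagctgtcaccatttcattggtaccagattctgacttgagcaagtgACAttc
Snora16a of Snhg12, chr4:132309464-132309600, plus strand: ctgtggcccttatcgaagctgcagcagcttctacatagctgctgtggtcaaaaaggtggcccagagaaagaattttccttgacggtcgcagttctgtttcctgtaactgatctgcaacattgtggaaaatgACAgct
Snord99 of Snhg12, chr4:132310691-132310764, plus strand: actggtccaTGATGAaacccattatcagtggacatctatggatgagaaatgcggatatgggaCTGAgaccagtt
No TGATGA was found in the first 30 bases of Snord22, which is longer than the other box C/D snoRNAs shown.

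Against cerebellum, 3 of the 8 hosts rose in the tumours (Snhg1, Snhg5 and Snhg8), 1 fell (Snhg11) and 4 did not pass the test (Gas5, Snhg3, Snhg6 and Snhg12). Of all tested genes, 20.7% were higher and 21.5% lower in this comparison, so 3 of 8 and 1 of 8 stand beside 1 gene in about every 5 in each direction. The median log2 difference was 1.52 over the 8 hosts and 0.01 over all tested genes. The 8 hosts ranged from -5.79 to 3.05 on the log2 scale. Between A1G and Ptch1 tumours none of the 8 passed the test, in a comparison in which 0.0139% of all tested genes passed.

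**Figure D1:**
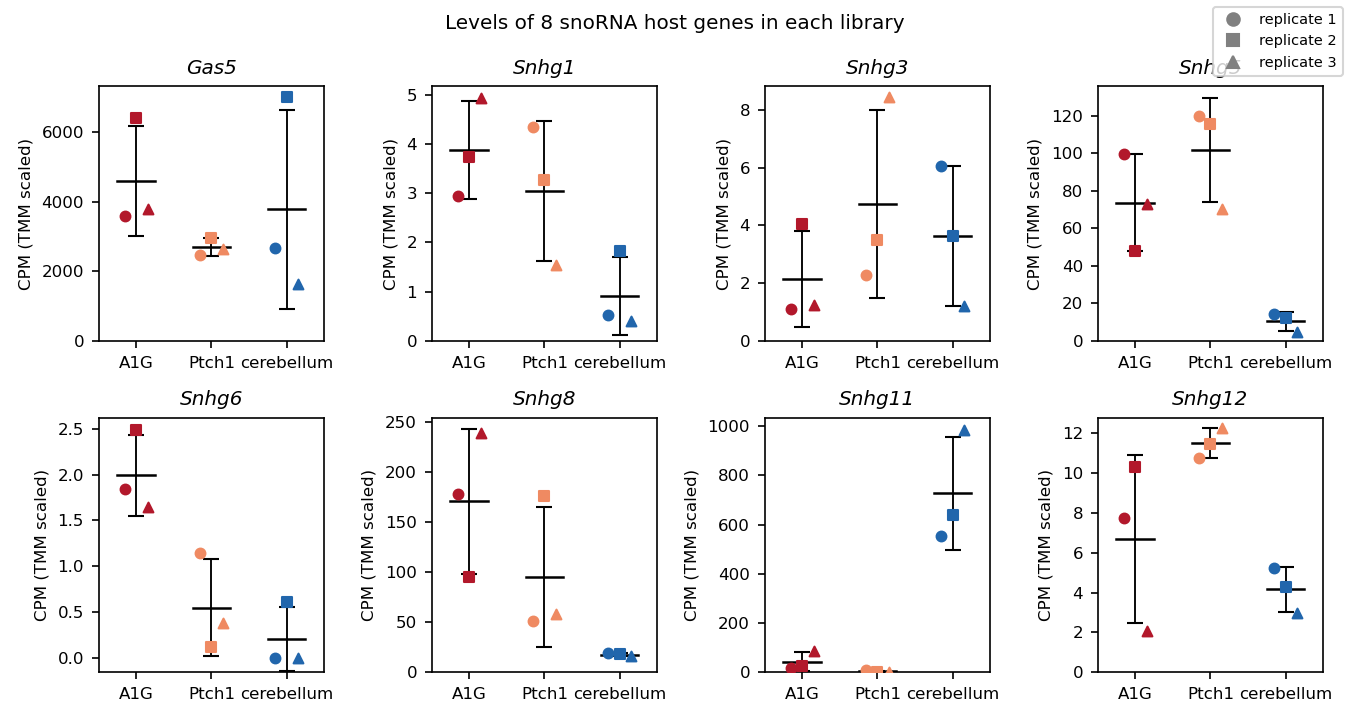
Level of each of the 8 hosts in CPM in every library, by group, with the group mean (bar) and SD. The axes are linear and start at 0, except for Snhg6, where the axis starts below 0 to hold the SD bar. Snhg5 and Snhg8 lie above cerebellum in all 6 tumour libraries, and Snhg11 lies below it in all 6.

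Among the hosts of box C/D snoRNAs, Snhg5, which carries Snord50a and Snord50b, differed most (chr9:88521050-88522929, minus strand, 6 transcripts in GENCODE M21). It stood at 99.9, 48.03 and 73.2 CPM in A1G tumours, at 119.98, 116 and 70.1 CPM in Ptch1 tumours, and at 14.4, 12.5 and 4.79 CPM in cerebellum. All 6 tumour libraries were above all 3 cerebellum libraries, and the tumour kinds overlapped. On the log2 scale the tumours were 3.05 higher (SE 0.41, adjusted p = 9.26e-05 by edgeR), which is 8.28-fold with an interval of 4.46 to 15.4. The exact permutation p of the means (two-sided) was 0.0238, the smallest that 6 against 3 libraries allow. Set against cerebellum separately, A1G tumours were higher by 2.81 (SE 0.43) and Ptch1 tumours by 3.29 (SE 0.44), 2 comparisons that share the cerebellum libraries. A1G and Ptch1 tumours differed by -0.47 (95% interval -1.33 to 0.39).

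Snhg1 carries a series of box C/D snoRNAs, 8 in the annotation, and its spliced RNA is known to be short-lived (chr19:8723475-8726443, plus strand). Its row held few fragments, from 2 to 29 per library. It stood at 2.95, 3.74 and 4.93 CPM in A1G tumours, at 4.35, 3.26 and 1.53 CPM in Ptch1 tumours, and at 0.525, 1.82 and 0.399 CPM in cerebellum. Ptch1 replicate 3 lay below cerebellum replicate 2, and the other 5 tumour libraries lay above all cerebellum libraries. The tumours were higher by 1.95 (SE 0.70, adjusted p = 0.0398 by edgeR), but in 5 of 9 fits with 1 library left out the call was lost (adjusted p from 0.0258 to 0.145 over the 9 fits). Those 5 left out A1G replicate 3, Ptch1 replicate 1 or 2, or cerebellum replicate 1 or 3. The call was also lost when genes of low level were kept (adjusted p = 0.0630). On the summed fragments, 84 in tumours against 10 in cerebellum, the ratio of shares was 4.30 with an exact 95% interval of 2.23 to 9.29 that covers counting error only. Neither tumour kind alone passed the test against cerebellum (log2 2.11, adjusted p = 0.0536 for A1G, and 1.79, adjusted p = 0.0778 for Ptch1), but both did without cerebellum replicate 2 (adjusted p = 0.0344 and 0.0423) and with limma on log2(FPKM + 1) (adjusted p = 0.00831 and 0.0213), and A1G also with DESeq2 (adjusted p = 0.0392).

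Gas5, known as a transcript that accumulates in growth-arrested cells, was the most abundant host per length in every group (chr1:161034422-161038539, plus strand, 25 transcripts). It stood at 3591, 6420.2 and 3793 CPM in A1G tumours, at 2479.9, 2972 and 2652 CPM in Ptch1 tumours, and at 2681, 7029 and 1642 CPM in cerebellum. Cerebellum alone spanned more than all the tumours, with replicate 2 the highest and replicate 3 the lowest of the 9 libraries. The tumours differed from cerebellum by -0.10 (SE 0.40, 95% interval -0.97 to 0.76, adjusted p = 0.858 by edgeR), and by 0.71 (SE 0.36, adjusted p = 0.158) without cerebellum replicate 2. Every A1G library was above every Ptch1 library, a difference of 0.77 (SE 0.46, 95% interval -0.24 to 1.78, adjusted p = 0.575) that was 0.45 (SE 0.47) without A1G replicate 2. Gas5 alone took up 0.155% to 0.700% of a library's fragments. A1G replicate 2, at 0.675%, is also the library with the largest share of snoRNA rows, and the part of small RNA content in the Gas5 value was not tested.

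Snhg6, host of Snord87, was near the limit of counting, with 0 to 8 fragments per library (chr1:9941959-9944118, minus strand). It stood at 1.84, 2.50 and 1.64 CPM in A1G tumours, against 1.14, 0.112 and 0.383 CPM in Ptch1 tumours. In cerebellum it had 0, 2 and 0 fragments. On summed fragments the tumours (24) exceeded cerebellum (2) by a ratio of 6.14 with an exact interval of 1.53 to 53.6 for counting error, and A1G tumours (17) exceeded Ptch1 tumours (7) by 4.99 (1.97 to 14.2). Neither difference passed edgeR's test (adjusted p = 0.130 and 0.544), although every A1G library was above every Ptch1 library. The difference between tumours and cerebellum passed with limma on log2(FPKM + 1) and on log2(FPKM + 0.1) (adjusted p = 0.0164 and 0.0180) but not with DESeq2 (adjusted p = 0.158). A1G tumours alone were higher than cerebellum by 3.31 (SE 1.24, adjusted p = 0.0585), a difference that passed without cerebellum replicate 2, the only one with fragments (adjusted p = 0.0349), and with limma on log2(FPKM + 1) or log2(FPKM + 0.1), among adjusted p-values of 0.00619 to 0.164 over 18 alternatives.

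Among the hosts of box H/ACA snoRNAs, Snhg8 rose (chr3:123507552-123508404, minus strand, with Snora24 in its span). It stood at 178, 95.4 and 239 CPM in A1G tumours, at 51.3, 176 and 58.2 CPM in Ptch1 tumours, and at 19.4, 17.9 and 16.2 CPM in cerebellum. All 6 tumour libraries were above all cerebellum libraries, which lay close together. The tumours were higher by 2.84 (SE 0.46, adjusted p = 3.67e-04 by edgeR), a fold of 7.16 with an interval of 3.57 to 14.4 (exact two-sided permutation p = 0.0238, the smallest possible). A1G tumours were higher than cerebellum by 3.26 (SE 0.50) and Ptch1 tumours by 2.42 (SE 0.49), with shared cerebellum libraries. The tumour kinds overlapped through Ptch1 replicate 2, the deepest library, and differed by 0.84 (95% interval -0.15 to 1.83, adjusted p = 0.536). Without that library the difference was 1.64 (SE 0.38, adjusted p = 0.420).

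Snhg3 overlaps its neighbour Rcc1 on the same strand over 5592 bp (chr4:132348014-132353686, minus strand) and carries Snora73a and Snora73b. It stood at 1.11, 4.05 and 1.23 CPM in A1G tumours, at 2.29, 3.48 and 8.43 CPM in Ptch1 tumours, and at 6.04, 3.65 and 1.198 CPM in cerebellum, from 3 to 31 fragments per library. All groups overlapped. No difference passed, with -0.18 (95% interval -1.65 to 1.29) between tumours and cerebellum and -1.07 (-2.83 to 0.69) between A1G and Ptch1 tumours. Rcc1, the nucleotide exchange factor of Ran, was higher in tumours by 1.998 (SE 0.38, adjusted p = 0.00119 by edgeR). Reads in the shared stretch could belong to either gene.

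Snhg11 is known as a host expressed in brain, and it is annotated as protein coding in GENCODE M21 (chr2:158375638-158386145, plus strand). It was the member that fell. Cerebellum stood at 554, 639 and 985 CPM, A1G tumours at 17.7, 24.6 and 87.6 CPM, and Ptch1 tumours at 7.78, 1.12 and 3.45 CPM. The Ptch1 values rest on only 34, 10 and 9 fragments, and the A1G values on 48, 79 and 213. The 3 groups did not overlap at all: every Ptch1 library was below every A1G library, and every tumour library below every cerebellum library. The tumours were lower by a wide margin (log2 -5.79, SE 0.56, adjusted p = 7.14e-06 by edgeR), which is 55.5-fold lower. A1G tumours were lower than cerebellum by 16.8-fold (log2 -4.07, SE 0.68, adjusted p = 7.50e-04) and Ptch1 tumours by 183-fold (log2 -7.52, SE 0.82, adjusted p = 2.54e-05), with the cerebellum libraries in both.

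Snhg11 also had the widest gap between the tumour kinds among the 8 hosts. A1G tumours were higher than Ptch1 tumours by 3.44 (SE 0.71, 95% interval 1.89 to 4.99), or 10.9-fold. The unadjusted p was 3.9e-04 and the adjusted p 0.217 by edgeR, so the difference did not pass. It passed when genes of low level were kept (adjusted p = 0.00261) and with DESeq2 (adjusted p = 1.70e-04), and over the 18 alternatives adjusted p ran from 1.70e-04 to 0.451. Without A1G replicate 3, the highest tumour library, the difference was 2.42 (SE 0.60, adjusted p = 0.394), and without Ptch1 replicate 2, the lowest, it was 2.88 (SE 0.70, adjusted p = 0.422). The exact two-sided permutation p was 0.1, the smallest that 3 against 3 libraries allow.

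Marker sums of neurons and glia are given beside Snhg11. The 9 Purkinje cell markers summed to 431 to 830.3 CPM in A1G tumours, 247 to 363 CPM in Ptch1 tumours and 10940.2 to 14844 CPM in cerebellum, and each A1G library was above each Ptch1 library. All 9 were fitted higher in A1G than in Ptch1 tumours, and 1 of them, Calb1, passed the test. Fitted higher too were 8 of 10 mature granule neuron markers, 7 of 8 each for oligodendrocytes and microglia, and 3 of 3 for erythrocytes. The counts were 5 of 8 each for astrocytes and endothelium, 4 of 7 for interneurons and 2 of 8 for granule neuron progenitors. The 10 mature granule neuron markers summed to 721 to 2832 CPM in A1G and to 695 to 1486 CPM in Ptch1 tumours, which overlapped, and 8 interneuron markers to 138 to 199 CPM and 139 to 202 CPM. In cerebellum the granule neuron sum was 8104 to 8801 CPM and the interneuron sum 977 to 1171 CPM. Of the glial lists, 8 oligodendrocyte markers summed to 165 to 514 CPM in tumours and 7692 to 8211 CPM in cerebellum. Of these 8, 7 passed as lower and 1 as higher. The 8 markers of astrocytes and Bergmann glia summed to 1188 to 2478 CPM and 4145 to 5055 CPM (5 of 8 lower, 1 higher). Microglia and macrophage markers went the other way, with 5 of 8 passing as higher in tumours and 0 as lower. Their sums were 237 to 346 CPM in A1G tumours, 148 to 253 CPM in Ptch1 tumours and 117 to 150 CPM in cerebellum. No marker on the 3 neuron lists was at 0 in all tumours. The part of residual normal cells in the Snhg11 values was not tested.

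**Figure D2:**
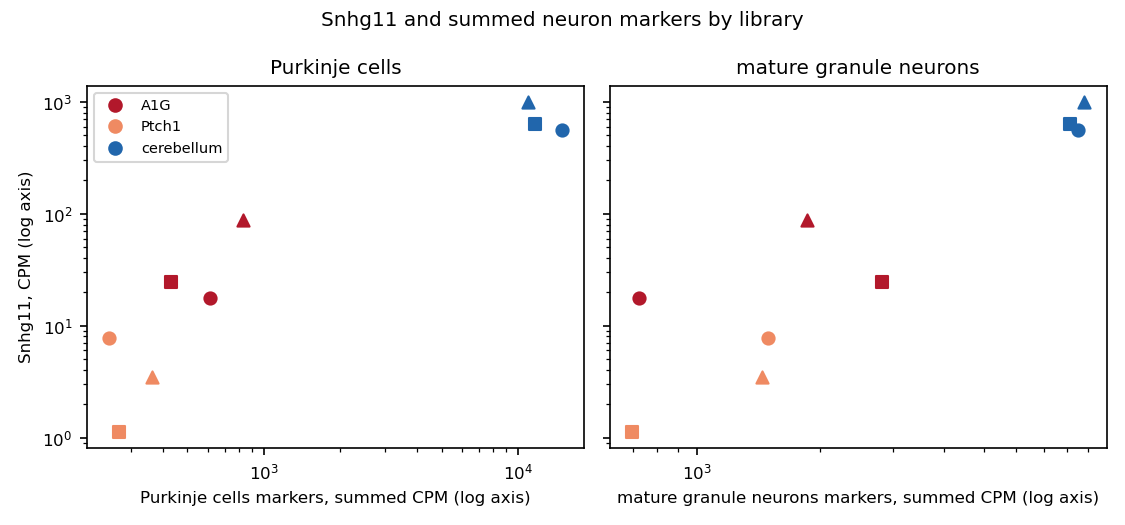
Snhg11 level against the summed level of 9 Purkinje cell markers (left) and 10 mature granule neuron markers (right), both in CPM on log axes, 1 point per library, with circles, squares and triangles for replicates 1, 2 and 3. The cerebellum libraries sit at the upper right, and the A1G libraries lie above the Ptch1 libraries in Snhg11.

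Snhg12 hosts snoRNAs of both classes (chr4:132308623-132311024, plus strand). It stood at 7.74, 10.3 and 2.06 CPM in A1G tumours, at 10.8, 11.5 and 12.3 CPM in Ptch1 tumours, and at 5.25, 4.26 and 2.995 CPM in cerebellum. A1G replicate 3, with 5 fragments, was the lowest of the 9 libraries, and the other 5 tumour libraries were above all cerebellum libraries. The tumours differed from cerebellum by 1.08 (SE 0.50, adjusted p = 0.0989 by edgeR), a difference that passed without A1G replicate 3 (1.29, adjusted p = 0.0262) among adjusted p-values of 0.0262 to 0.260 over 17 alternatives. Ptch1 tumours alone were higher than cerebellum by 1.46 (SE 0.55, adjusted p = 0.0510, 0.0390 or 0.0208 without A1G replicate 2 or 3, and 0.0312 with DESeq2) and A1G tumours by 0.70 (SE 0.56, adjusted p = 0.370). Every Ptch1 library was above every A1G library, a difference of -0.76 (95% interval -1.93 to 0.42, adjusted p = 0.643).

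**Figure D3:**
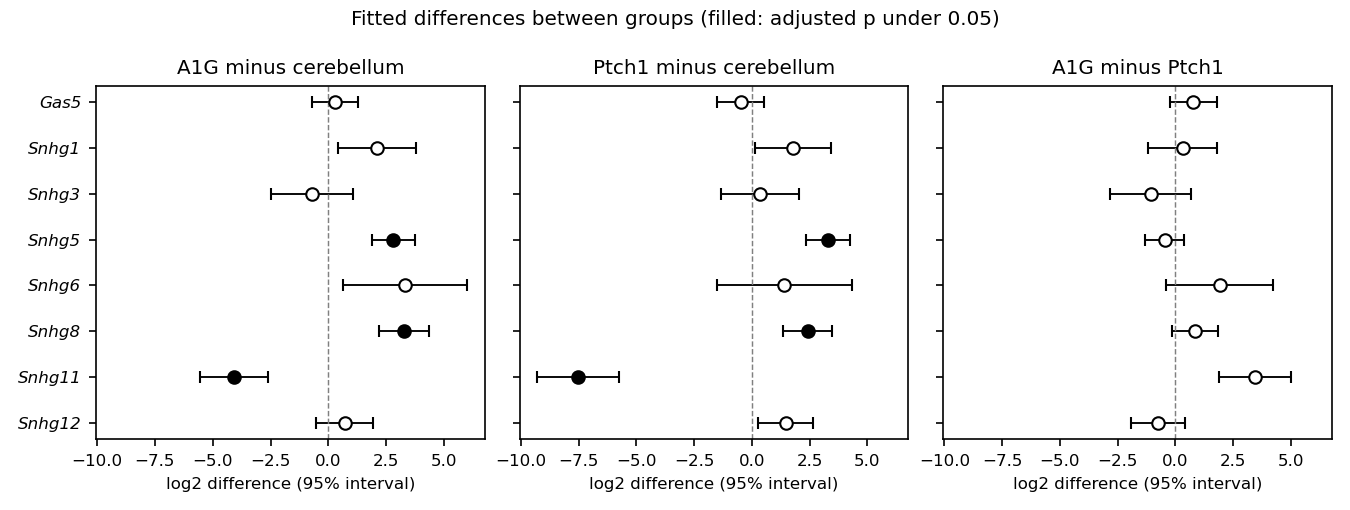
Fitted log2 difference of each host with its 95% interval, for A1G tumours minus cerebellum, Ptch1 tumours minus cerebellum and A1G minus Ptch1 tumours, with filled points where the adjusted p was under 0.05. Snhg5, Snhg8 and Snhg11 are filled in both comparisons with cerebellum, which share the cerebellum libraries, and no point is filled between the tumour kinds.

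Each tumour kind taken alone gave 2 higher hosts (Snhg5 and Snhg8) and 1 lower host (Snhg11) against cerebellum. Of all tested genes, 16.3% were higher and 16.1% lower in A1G tumours, and 20.2% were higher and 19.7% lower in Ptch1 tumours. Counting hosts whose libraries do not overlap, 2 of 8 lay wholly above cerebellum in the 6 tumours and 1 wholly below, where 18.5% and 19.7% of all tested genes did. Between the tumour kinds 3 of 8 (Gas5, Snhg6 and Snhg11) lay wholly higher in A1G tumours and 1 (Snhg12) wholly lower, where 6.69% and 8.84% of all tested genes did, and none of these 4 passed edgeR's test. At an unadjusted p under 0.05 the host counted between the tumour kinds was 1 (Snhg11), among 1525 genes.

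The order of the hosts was compared per length, as CPM per kilobase of the effective length implied by the deposited FPKM. In A1G and in Ptch1 tumours the order began with Gas5, Snhg8, Snhg5 and Snhg12. Gas5 stood at 1838 ± 630.5 in A1G tumours, 1079 ± 99.7 in Ptch1 tumours and 1511 ± 1142 CPM per kilobase in cerebellum (SD, n = 3 each). Snhg8 stood at 275 ± 116, 153 ± 113 and 28.8 ± 2.63, and Snhg5 at 85.7 ± 30.1, 119 ± 32.2 and 12.3 ± 5.93 CPM per kilobase. Snhg8 and Snhg5 did not overlap within A1G tumours (lowest 154 against highest 116) but did within Ptch1 tumours (lowest 82.6 against highest 139). In cerebellum Snhg11 moved to the place after Gas5, at 120.4 ± 37.9 CPM per kilobase, against 7.19 ± 6.39 in A1G and 0.683 ± 0.561 in Ptch1 tumours, where it came last. The other 4, Snhg1, Snhg3, Snhg6 and Snhg12, had group means of at most 26.7 CPM per kilobase. Neighbours in the order overlapped among these 4 in A1G tumours. In Ptch1 tumours Snhg6 (highest 5.24) lay just under Snhg1 (lowest 5.25), and in cerebellum Snhg1 (highest 6.25) lay under Snhg12 (lowest 6.96).

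These lengths bear on what each row holds. The deposited values of Gas5 imply 2.50 kb, while the 25 GENCODE transcripts have a median length of 629 bases and the longest, of 2556 bases, is the one near that value. In 16 of the 25 transcripts an exon contains a snoRNA, as in retained introns. The rows of Snhg1, Snhg3 and Snhg6 imply 0.292, 0.250 and 0.218 kb, below the full lengths of their shortest GENCODE transcripts (312, 332 and 400 bases). The implied values are effective lengths, which can be shorter than the full length of the same transcript. These comparisons therefore do not show which transcript model was counted. The transcript models that the authors counted are not given in the sources at hand.

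The rows of the snoRNAs were then set beside those of their hosts. Snord22 had 2365 to 13495 fragments per library while its host Snhg1 had 2 to 29, a median ratio of 591 over the libraries. Snord22 stood at 1409.6, 4209 and 2769.7 CPM in A1G tumours, at 1486, 1296 and 906 CPM in Ptch1 tumours, and at 1208, 1846 and 2488 CPM in cerebellum. The groups overlapped, and the tumour difference was 0.01 (SE 0.35, 95% interval -0.75 to 0.77, adjusted p = 0.992 by edgeR) beside 1.95 for Snhg1. A1G tumours differed from Ptch1 tumours by 1.19 (SE 0.41, adjusted p = 0.353), with A1G replicate 2 the highest library. The difference between host and snoRNA was not itself tested.

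Snora24 and its host Snhg8 shared fragments. Snhg8 held fractional values in 8 of 9 libraries, yet its value and that of Snora24 summed to a whole number, to within 0.01 fragments, in all 9. Fragments of the pair had therefore been divided between the rows, with 0% to 29.8% of the sum given to Snora24 and the largest share in cerebellum replicate 3. Snora24 stood at 11.8, 4.68 and 23.9 CPM in A1G tumours, at 0.687, 7.86 and 4.98 CPM in Ptch1 tumours, and at 1.84, 0 and 6.79 CPM in cerebellum. It differed by 1.38 (SE 0.92, adjusted p = 0.252) between tumours and cerebellum.

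Gas5 carries 9 annotated snoRNAs, of which 2 have a row. Snord47 had fragments, and Mir5117, named after its values were seen, was listed at 0 in all 9 libraries. Snord47 stood at 4.79, 14.97 and 74.02 CPM in A1G tumours, at 0.687, 1.69 and 7.66 CPM in Ptch1 tumours, and at 3.94, 5.78 and 29.6 CPM in cerebellum. It was at most 0.0195 of the Gas5 fragments of a library, and its tumour difference was -0.46 (SE 0.86, adjusted p = 0.697). Snord87 exceeded its host Snhg6 in fragments in all 9 libraries (211 against 26 in all) and lay lower in the tumours by a value that did not pass (log2 -0.85, SE 0.48, adjusted p = 0.173).

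Of the 4 snoRNA rows within Snhg12, Snora16a and Snord99 were highest in A1G replicate 2. Snora16a stood at 28.01, 262 and 37.01 CPM in A1G tumours, at 44.9, 37.4 and 23.4 CPM in Ptch1 tumours, and at 34.1, 80.6 and 175 CPM in cerebellum, and Snord99 at 3.69, 67.99 and 4.93, at 2.29, 1.91 and 4.21, and at 16.3, 6.39 and 28.4 CPM. Against cerebellum Snora16a differed by -0.63 (SE 0.63, adjusted p = 0.450) and Snord99 by -1.04 (SE 0.77, adjusted p = 0.298). Without A1G replicate 2 both were lower in tumours, by -1.51 (adjusted p = 0.0131) and -2.33 (adjusted p = 0.00300), while their host Snhg12 was then at 0.86 (adjusted p = 0.174). Snora44 differed by 0.13 (SE 0.51, adjusted p = 0.860). Snord99 passed in Ptch1 tumours alone (log2 -2.68, SE 0.999, adjusted p = 0.0493), and A1G tumours differed from Ptch1 tumours by 3.27 (SE 1.01, adjusted p = 0.322). Mature snoRNAs and unspliced host RNA cannot be told apart in these rows.

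**Figure D4:**
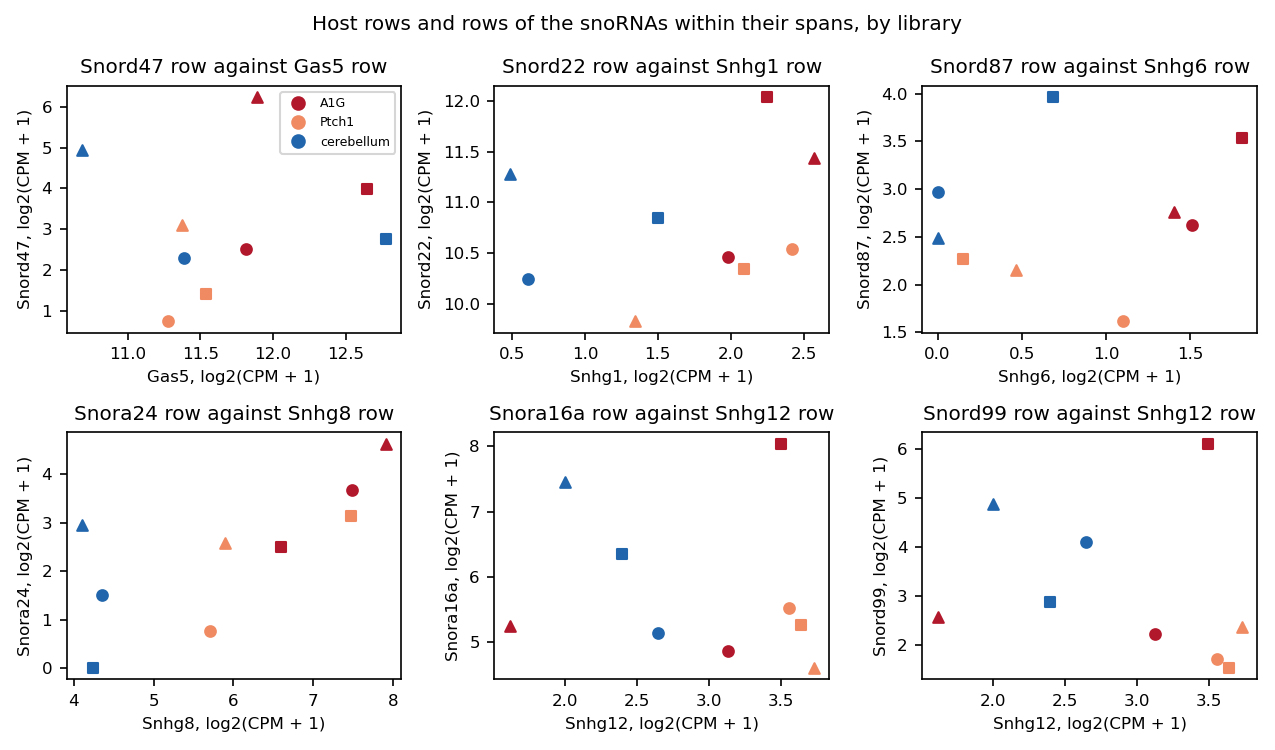
Level of 6 snoRNA rows against the rows of their hosts, log2(CPM + 1) on both axes, 1 point per library, with circles, squares and triangles for replicates 1, 2 and 3. Snord22 lies between 906 and 4209 CPM and Snhg1 between 0.399 and 4.93 CPM, and their relation was not tested. A1G replicate 2 stands highest for Snora16a and Snord99.

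Related genes were then taken from 6 lists, some of which share genes, such as Nop58 and Eif4a2 with the protein-coding hosts. Of 13 other noncoding hosts, 5 had a row and 4 were tested, and none passed edgeR's test in tumours against cerebellum (median 0.60). At an unadjusted p under 0.05 there was 1 of the 4, beside 7183 of all 14337 tested genes, while 1 passed with DESeq2 and 2, Snhg4 and Snhg7, with limma at either pseudocount. The most abundant, Dancr, stood at 22.4 ± 6.26, 38.8 ± 29.9 and 28.7 ± 13.1 CPM in A1G tumours, Ptch1 tumours and cerebellum, and Snhg4 at 10.3 ± 3.09, 9.29 ± 3.23 and 4.50 ± 3.40 CPM (SD, n = 3 each). Snhg7, named after its values were seen, had all 6 tumour libraries above cerebellum (1.79, SE 0.71, adjusted p = 0.0599 by edgeR), and passed without cerebellum replicate 2 (adjusted p = 0.0352), as Snhg4 did without cerebellum replicate 1 (adjusted p = 0.0286).

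Of 43 tested protein-coding snoRNA hosts, 35 were higher in tumours, beside 20.7% of all tested genes, with a median of 1.64. The 1 that was lower, Eif4a2, named after its values were seen, no longer passed without cerebellum replicate 1. Most genes of the list code for ribosomal proteins and translation factors. Rpl32, a ribosomal protein, stood at 157 ± 39.8 CPM in the 6 tumours and 24.9 ± 3.15 CPM in cerebellum (log2 2.66, SE 0.29, adjusted p = 1.96e-05 by edgeR). Rps20 rose by 2.64 (SE 0.43) and Rpl12 by 2.63 (SE 0.43). Ribosomal protein genes share reads with their processed copies, and the counts may divide them.

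The proteins that bind snoRNAs were next. Of 14 tested genes of box C/D particles, 8 were higher (median 0.91), beside 20.7% of all tested genes, led by the core proteins Nop58 (2.48, SE 0.36, adjusted p = 1.56e-04) and Fbl, the methyltransferase (1.94, SE 0.53, adjusted p = 0.0110, and 0.0516 without cerebellum replicate 2), and by the assembly helicase Ruvbl2 (1.69, SE 0.30). Of 10 tested genes of box H/ACA particles, 6 were higher (median 1.47), beside the same 20.7%, among them the core proteins Nhp2 (2.17, SE 0.37) and Gar1 (1.69, SE 0.42), and again Ruvbl2, which is on both lists. Other genes that passed are on both lists too, so the counts of higher genes are not independent. Nop58 stood at 236 ± 101 CPM in A1G and at 448 ± 105 CPM in Ptch1 tumours, and every A1G library was below every Ptch1 library, a difference of -0.92 (SE 0.37, adjusted p = 0.403) that did not pass. Of the 10 box H/ACA genes, 1 was fitted higher in A1G than in Ptch1 tumours, and so was 1 of the 14 box C/D genes, with medians of -0.74 and -0.50 beside 0.02 over all tested genes, and no gene of either list passed edgeR's test or DESeq2's. At an unadjusted p under 0.05 there were 4 on each list, which share genes, beside 1525 of all 14337 tested genes.

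The decay machinery that is known to clear spliced host RNA was measured through 22 genes, of which 6 were higher and 1, the kinase Smg1, lower (median 0.56), the latter not without cerebellum replicate 2 or 3. With 20.7% of all tested genes higher and 21.5% lower, the count of higher decay genes was near the background. Magoh, a core protein of the exon junction complex, rose by 2.17 (SE 0.32, adjusted p = 1.72e-04 by edgeR), the release factor gene Etf1 by 0.99 (SE 0.22) and the helicase gene Dhx34 by 0.94 (SE 0.31, adjusted p = 0.0260). Dhx34 did not pass without A1G replicate 1 or cerebellum replicate 1 or 2 (adjusted p = 0.0532, 0.107 and 0.0715). Of 25 tested TOP genes of translation outside the ribosomal proteins, 18 were higher and 2, Eif4a2 and Mtor, lower (median 1.27), beside the same 20.7% and 21.5%. When any 1 of Ptch1 replicates 1 and 2 or the 3 cerebellum replicates was left out, 1 stayed lower past the test. Smg1, Eif4a2 and Mtor were named after their values were seen. Eif4ebp1, an inhibitor of cap-dependent translation, rose from 0.672 ± 0.557 CPM in cerebellum to 20.7 ± 9.01 CPM in the 6 tumours (log2 4.89, SE 0.64), Npm1 by 2.40 (SE 0.50) and Hnrnpa1 by 2.29 (SE 0.41). The median over all tested genes was 0.01 in this comparison.

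**Figure D5:**
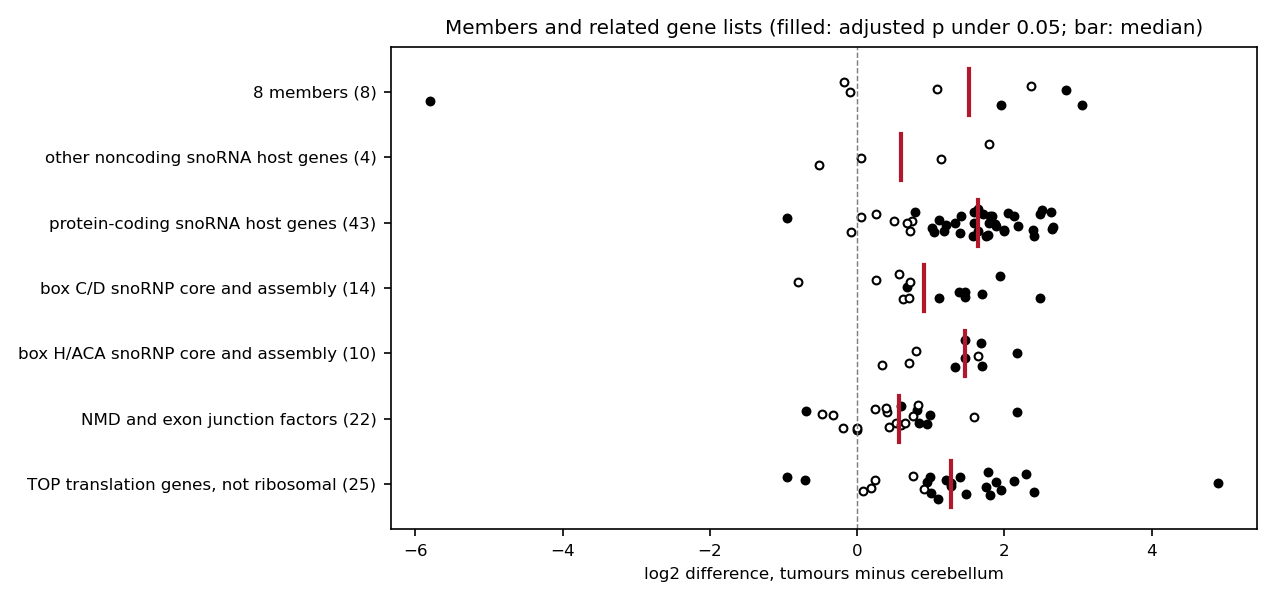
Log2 difference between tumours and cerebellum for the 8 hosts and the tested genes of 6 lists (number in brackets), with filled points where the adjusted p was under 0.05 and a red bar at each median. The 8 hosts run from -5.79 to 3.05, while 35 of the 43 protein-coding hosts are filled to the right of 0.

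Neighbouring genes can add reads because strand is not stated. Zbtb37 overlaps Gas5 by 428 bp on the opposite strand and was at 49.6 to 94.6 CPM in the tumours and 18.6 to 34.1 CPM in cerebellum, which is small beside Gas5. Mcmdc2 overlaps Snhg6 by 127 bp on the opposite strand and was at 0.766 to 4.52 CPM in the 9 libraries, as low as Snhg6 itself.

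Genes with the most similar pattern over the 9 libraries were found by Pearson correlation of log2(CPM + 1), given as a description of libraries that share 3 groups. For Snhg5 they were Depdc1b (r = 0.996), the ribosomal protein gene Rpl39 (0.993) and the condensin gene Smc2 (0.992). For Snhg8 they were Pus10 (0.978), 2700094K13Rik (0.971) and Rab39 (0.971), and for Snhg1 Cep85l (0.982), Skida1 (0.955) and C3ar1 (0.947). Snhg11 was closest to Rabgap1l (0.994), Penk, the enkephalin precursor (0.992), and the transporter gene Slc6a17 (0.989). Snhg12 was closest to Sumo3 (0.970), Pold2 (0.968) and Phf23 (0.949), and Snhg6 to Ogt (0.946), Pvrl3 (0.939) and Nfam1 (0.938). Lower values were found for Snhg3, with Chmp3 (0.923), 2810008D09Rik (0.912) and Pet117 (0.909), and for Gas5, with Gm1821 (0.866), Kcns2 (0.866) and Snord19 (0.861). Snord19, a snoRNA row, was near the limit of counting, with means of 0.449 CPM in A1G tumours, 0 in Ptch1 tumours and 0.203 in cerebellum.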

How the data were processed

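Ribosome-depleted total RNA of 9 libraries was sequenced on an Ion Proton, 3 libraries per chip, per the labels' protocols. No fit used chip as a factor, and its part in the differences between groups was not tested. Per the submitters' processing notes the build was mm10 and Bowtie 0.12.2 was named without its role. The annotation and the quantifier are not given in the sources used here. The deposited tables give, per the file headers, an expected count of raw fragments for each gene. They also give a signal (the fragments after scaling by the authors) and FPKM, both computed by the authors. FPKM per scaled fragment was 0.808 times as high in cerebellum as in tumours, a factor between deposited columns that does not measure a bias of FPKM. Raw fragments were tested because they fit a count model, and FPKM entered the filter and the limma alternatives.

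Fragments were rounded and tested with edgeR 4.0.16 (TMM, 1 mean per group, 9 libraries in 1 fit) for genes that reached 1 FPKM in 3 or more libraries. DESeq2 1.42.0 and limma 3.58.1 on log2(FPKM + 1) and log2(FPKM + 0.1) were alternatives, under R 4.3.3. Python 3.11.15 (matplotlib 3.10.9, SciPy 1.17.1, pandas 2.3.3, NumPy 2.4.6) made tables and figures, and the edgeR step was tested on simulated data. Intervals on summed fragments cover counting error only, at 95%.

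The members, lists and tests were chosen with earlier results of these data known. Named genes were all 8 members, the 3 genes of each list with the largest differences among those past the threshold (or the 2 most abundant), the 3 most similar genes per member and up to 3 snoRNA rows per member. Coordinates are from GENCODE M21 (GRCm38) and promoter sequences from RefSeq (GRCm38.p6), matched by symbol for 7 members.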

Additional observations from a re-analysis of the deposited data

Results flagged for a closer look

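Among the 6 tumour libraries, 16 rows with fragments (8 hosts and 8 snoRNA rows) were checked for a library far from the others, by the gap to its nearest neighbour over the whole range, with a critical value of 0.625. That value is passed about 1 time in 20 for a single normal population. The CPM here were untransformed and came from both tumour kinds, so the chance rate for these rows was not computed. A library stood apart in 5 rows, each time as the highest, and each time an A1G library. In A1G replicate 2 these were Gas5 at 6420.2 CPM (gap 0.667 of the range), Snora16a at 262 CPM (0.910) and Snord99 at 67.99 CPM (0.954). In A1G replicate 3 they were Snhg11 at 87.6 CPM (0.728) and Snord47 at 74.02 CPM (0.805). A1G replicate 2 also had the largest share of fragments in snoRNA rows (1.47%), and A1G replicate 3 the highest sum of Purkinje cell markers among the tumours (830.3 CPM). The part of either in these values was not tested.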

How the results depend on the processing

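Low counts limit Snhg1, Snhg3, Snhg6 and Snhg12, and also the level of Snhg11 within the Ptch1 tumours. The authors' transcript models limit the per-length order. The calls of Snhg5, Snhg8 and Snhg11 against cerebellum held under all 17 alternatives, with log2 differences of 2.69 to 3.36, 2.44 to 2.99 and -6.30 to -5.14, while Snhg1 passed in 10 of 17.

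Between A1G and Ptch1 tumours 1 host, Snhg11, passed in place of 0 where low genes were kept, and 1 with DESeq2; over all genes 2 passed, 81 with low genes kept and 163 with DESeq2. Hosts higher than cerebellum numbered 4 in place of 2 for A1G and 4 in place of 2 for Ptch1 tumours with limma, with either pseudocount, and 2 to 4 for A1G tumours when a library was left out (4 without cerebellum replicate 2). The cause was not tested.

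Differences near 0 changed sign. Gas5 between tumours and cerebellum was 0.18 with limma at either pseudocount and 0.096 with the replicate block. Snord22 was -0.031 with median-of-ratios scaling and with DESeq2, -0.0014 with upper-quartile scaling and -0.062 with the stricter filter. Snora44 was -0.033 with limma at either pseudocount, and Dancr -0.019 with the stricter filter. Leaving out 1 library moved the tumour difference from -0.45 to 0.71 for Gas5, -0.62 to 0.42 for Snhg3, -1.26 to 0.999 for Snord47, -0.22 to 0.29 for Snord22, -1.51 to 0.14 for Snora16a, -0.30 to 0.35 for Snora44 and -0.36 to 0.39 for Dancr. It moved Gas5 from -0.055 to 1.099 for A1G and -0.84 to 0.31 for Ptch1 tumours against cerebellum, Snhg3 from -0.30 to 0.95 for Ptch1 tumours, and Snora16a from -0.13 to 2.08 between the tumour kinds. In the check of pairing, same-numbered libraries deviated together with correlations of -0.069 to 0.211, and 5 of 9 correlated best with a library of their own number. No chance value was computed for these, so whether the numbers pair the libraries was not tested. With the replicate block the Snhg1 call was lost (adjusted p = 0.0568 by edgeR), and 0 hosts passed between the tumour kinds.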
